A study of Homo sapiens with 14 samples.

Results

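The 37 genes described here are the enzymes of glycolysis, the transporters and switches that feed and drain the pathway, genes of the hypoxia response, and the gluconeogenic enzymes PCK1 and FBP1. They were chosen by name and matched by symbol to 37 of the 58825 Ensembl identifiers in the count tables. They fall into 17 glycolytic enzymes (HK1, HK2, GPI, PFKL, PFKM, PFKP, ALDOA, ALDOC, TPI1, GAPDH, PGK1, PGAM1, ENO1, ENO2, PKM, LDHA and LDHB) and 4 glucose and lactate transporters (SLC2A1, SLC2A3, SLC16A1 and SLC16A3). A further 4 genes encode regulators of the pathway (PDK1, PDK3, PFKFB3 and PFKFB4), 8 are other targets of the hypoxia-inducible factors (CA9, CA12, ADM, ANKRD37, ANGPTL4, BNIP3, BNIP3L and NDRG1), 2 encode alpha subunits of those factors (HIF1A and EPAS1), and 2 are gluconeogenic enzymes. The RNA came from 3 lines grown from human ovarian cancers (OVCAR-3, CAOV3, SKOV3), each cultured with GSK-J4 or with GSK-J5 (both at 2.5 µM). GSK-J4 enters cells and inhibits the histone demethylases KDM6A and KDM6B, and GSK-J5 is an isomer used as its inactive control. Effects are thus those of GSK-J4 over GSK-J5, and no untreated library was used. At 72 h each line gave 3 libraries of either compound, and at 48 h OVCAR-3 gave 2 of either, 22 libraries in all.

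In glycolysis, glucose enters through transporters such as GLUT1 (SLC2A1), is trapped by hexokinase, and is carried to pyruvate by enzymes that include phosphofructokinase, aldolase, phosphoglycerate kinase, enolase and pyruvate kinase. Lactate dehydrogenase turns pyruvate into lactate, which leaves the cell through monocarboxylate transporters such as MCT4 (SLC16A3), while the PDK kinases close the entry of pyruvate into the mitochondrial citric acid cycle. The hypoxia-inducible factors HIF-1 and HIF-2, built on the alpha subunits HIF1A and EPAS1, are degraded when oxygen is present and raise the transcription of many of these genes when it is short. PCK1, the cytosolic phosphoenolpyruvate carboxykinase, runs the committed step of gluconeogenesis in liver and kidney, and FBP1 reverses the phosphofructokinase step.

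A library held between 24037007 and 37990707 counts, and 3 counts, the most that a count of 0 allows, stood for 0.0771 to 0.159 CPM, the usual depth-normalised read count. Levels below are CPM after TMM scaling of all 22 libraries. Replicate 3 was a second library set in every line, with another RNA kit and other medium text in the labels, so the set, the kit, the medium and the replicate number cannot be told apart. The labels do not say whether replicates came from separate cultures, so p-values measure the spread between these libraries, which may be technical. Across genes, the OVCAR-3 GSK-J4 72 h replicate 3 library correlated more closely with the GSK-J5 72 h replicates 1 and 2 (Pearson's r of log2 CPM 0.979 and 0.978) than with the GSK-J4 72 h replicates 1 and 2 (0.95 and 0.946). The GSK-J5 72 h replicate 3 library also stood apart, at 0.963 and 0.964 with GSK-J5 72 h replicates 1 and 2. With GSK-J4 72 h replicate 3 it was at 0.969. Each OVCAR-3 result is therefore given from the 8 libraries of replicates 1 and 2, called the first set, and from all libraries. Replicates 1 and 2 of OVCAR-3 GSK-J4 at 72 h had the lowest TMM factors, 0.776 and 0.765, and at least 10 counts in 14714 and 14680 genes, against 16444 to 16504 in the GSK-J5 72 h libraries. The 5 epithelial markers EPCAM, KRT8, KRT18, KRT19 and CDH1 summed to 4160 to 8200 CPM in OVCAR-3 with GSK-J4 and 8140 to 9190 CPM with GSK-J5. KRT8 made up most of the sum, at 2420 to 4600 CPM with GSK-J4 and 4640 to 5630 CPM with GSK-J5, while EPCAM (342 to 452 and 280 to 387 CPM) and CDH1 (253 to 296 and 252 to 287 CPM) overlapped between the compounds. The 5 ovarian and Mullerian markers were PAX8, WT1, MUC16, MECOM and SOX17. In OVCAR-3 they summed to 855 to 1070 CPM with GSK-J4 and 1130 to 1620 CPM with GSK-J5. Leukocyte markers summed to at most 5.37 CPM with GSK-J4 and 5.77 CPM with GSK-J5 in OVCAR-3, endothelial markers to at most 3.96 and 5.41 CPM, and fibroblast markers to 7.34 to 42.4 and 36.2 to 52.9 CPM. The part of these differences in the results below was not tested, and in bulk RNA fewer cells of a type and less RNA per cell cannot be told apart. In SKOV3 the replicate 3 libraries stood apart in both compounds, with the fibroblast collagen gene COL1A2 at 2.91 CPM with GSK-J4 and 2.58 CPM with GSK-J5, against 149 to 199 CPM in the other SKOV3 libraries. COL1A1, the most abundant fibroblast marker there, was not apart, at 418 and 471 CPM in replicate 3 and 347 to 476 CPM in the others. CAOV3 held the monocyte gene CD14 at 74.9 to 102 CPM with GSK-J4 and 52.3 to 111 CPM with GSK-J5.

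In the first-set libraries of OVCAR-3, PCK1 fell at both times with GSK-J4, to 0.159 and 0.308 CPM at 72 h, against 17.6 and 20.1 CPM with GSK-J5. The lactate exporter SLC16A3, the enzymes ALDOC and PGK1 and all 4 PDK and PFKFB genes fell as well. The glucose transporter SLC2A1, the hexokinases HK1 and HK2, CA12 and EPAS1 rose at both times. At 72 h, 13 members rose and 14 fell of the 35 tested, which is 37.1% and 40%, beside 33.5% of all 17090 genes tested that rose and 37.5% that fell (edgeR's quasi-likelihood test with Benjamini-Hochberg adjustment, threshold 0.05). The share of members called at 72 h was thus near that of all genes, and the count alone says nothing particular of them. At 48 h, 5 members rose (14.3%) and 19 fell (54.3%), beside 29.1% and 29.8% of all genes. The median log2 fold change of the members was -0.13 at 72 h, against -0.12 over all genes, and -0.35 at 48 h, against -0.024. SLC2A3 and CA9 were too low in OVCAR-3 to be tested. Of the members called at both times, 5 were higher at both, 13 were lower at both, and BNIP3 was higher at 72 h and lower at 48 h. Over all genes 71% were called in either direction at 72 h and 59% at 48 h. The share of all genes called alike at both times was not computed, so these counts say nothing particular of the members.

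**Figure D1:**
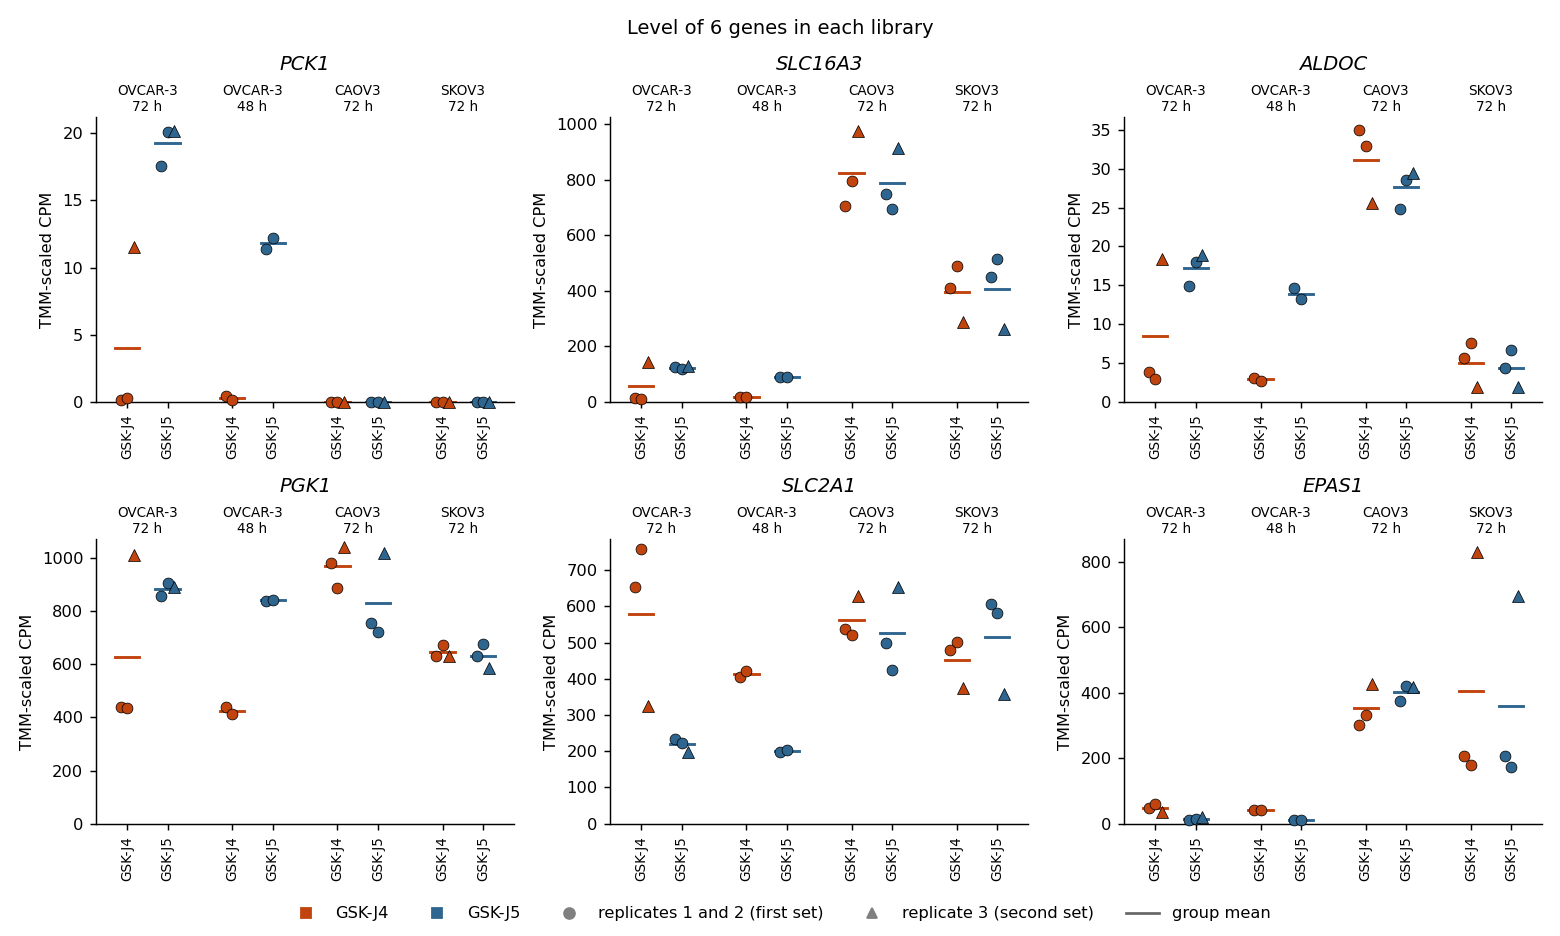
TMM-scaled CPM of 6 genes in each of the 22 libraries, with GSK-J4 in orange and GSK-J5 in blue, circles for replicates 1 and 2, triangles for replicate 3 and a line for the group mean. In OVCAR-3 the GSK-J4 circles of PCK1, SLC16A3, ALDOC and PGK1 lie below every GSK-J5 point, the GSK-J4 72 h triangle lies among or near the GSK-J5 points except for PCK1, SLC2A1 and EPAS1, and PCK1 had 0 counts in every CAOV3 and SKOV3 library.

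In all members with a listed promoter, the 250 bases before the transcription start were searched on both strands for ACGTG and GCGTG, the core letters of the element that hypoxia-inducible factors bind. The sequences are from RefSeq on GRCh38.p14, whose table held 32 of the 37 members, 11 of them with several start windows. PCK1, SLC2A3, SLC16A1, BNIP3L and NDRG1 were not among them. The 4 promoters below belong to SLC2A1 and EPAS1, which rose, and to ALDOC and PGK1, which fell. They are printed 5′ to 3′ on the gene's strand, lower case, with every match in capitals, and a match on the other strand reads CACGT or CACGC.
SLC2A1, chr1:42958869-42959118, minus strand: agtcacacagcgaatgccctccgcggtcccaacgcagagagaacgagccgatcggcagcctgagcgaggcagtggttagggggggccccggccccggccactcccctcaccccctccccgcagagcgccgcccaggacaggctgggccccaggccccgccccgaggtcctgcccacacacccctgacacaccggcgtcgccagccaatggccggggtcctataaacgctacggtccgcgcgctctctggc
EPAS1, chr2:46297157-46297406, plus strand: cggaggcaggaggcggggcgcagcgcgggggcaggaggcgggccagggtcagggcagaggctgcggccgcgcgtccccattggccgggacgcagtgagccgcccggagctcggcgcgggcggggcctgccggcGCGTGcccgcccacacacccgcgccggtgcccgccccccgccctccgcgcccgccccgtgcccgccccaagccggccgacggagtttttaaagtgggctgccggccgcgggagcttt
ALDOC, chr17:28576896-28577145, minus strand: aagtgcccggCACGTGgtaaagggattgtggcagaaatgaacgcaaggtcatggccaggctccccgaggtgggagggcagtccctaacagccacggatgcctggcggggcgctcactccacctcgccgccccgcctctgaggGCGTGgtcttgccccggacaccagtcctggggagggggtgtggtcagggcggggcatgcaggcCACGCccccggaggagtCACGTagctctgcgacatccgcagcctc
PGK1, chrX:78103998-78104247, plus strand: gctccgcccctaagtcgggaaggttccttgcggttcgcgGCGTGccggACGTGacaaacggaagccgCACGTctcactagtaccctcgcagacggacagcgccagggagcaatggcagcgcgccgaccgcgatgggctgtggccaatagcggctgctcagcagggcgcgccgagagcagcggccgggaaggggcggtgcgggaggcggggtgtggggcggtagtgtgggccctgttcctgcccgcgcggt
The SLC2A1 window held 0 matches and that of EPAS1 held 1, a GCGTG 117 bases before the start. The window of ALDOC held 5, at 240, 239, 108, 45 and 28 bases before the start, the first pair being both strands of 1 CACGTG, which is also the E-box hexamer. In PGK1, 3 matches lay at 211, 202 and 183 bases before the start. A match in at least 1 window was held by 11 of 12 members higher at 72 h (91.7%), 10 of 12 lower (83.3%) and 7 of 8 others (87.5%), and by 47.4% of all 27305 genes in the table. Genes with several windows have more places for a match, as HK1 and PFKM, with 1 of 7 windows each. Counted by window, 14 of 21, 13 of 18 and 9 of 20 held one, beside 43.2% of all 35116 windows. Members that rose and members that fell thus held the letters at similar shares, and the shares describe these windows only.

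Of the alpha subunits of the hypoxia-inducible factors, EPAS1 rose and HIF1A did not. EPAS1, which encodes HIF-2 alpha and lies on chromosome 2 (46293667 to 46386703, plus strand, GRCh38), had 47.3 and 58.6 CPM in first-set GSK-J4 72 h libraries and 34.7 CPM in replicate 3, against 11.8, 13.4 and 19.2 CPM with GSK-J5. At 48 h EPAS1 had 42.3 CPM in both GSK-J4 libraries, against 12.5 and 12.1 CPM with GSK-J5. Every GSK-J4 library of OVCAR-3 was above every GSK-J5 library at both times, replicate 3 included. In the first set the log2 fold change was 2.13 at 72 h (SE 0.128, edgeR adjusted p = 6.47e-08) and 1.81 at 48 h (SE 0.126, adjusted p = 5.43e-07). HIF1A, which encodes HIF-1 alpha, had 170, 205 and 215 CPM with GSK-J4 at 72 h, against 212, 219 and 187 CPM with GSK-J5, and the groups overlapped. HIF1A at 48 h had 164 and 202 CPM with GSK-J4, against 234 and 249 CPM with GSK-J5, and fell by 0.37 on the log2 scale (SE 0.113, edgeR adjusted p = 0.0144). At 72 h its log2 fold change of -0.13 did not pass (adjusted p = 0.304). These are mRNA levels, and the proteins, which oxygen controls by degradation, were not measured.

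The other targets of these factors did not move as a block in the first set. At 72 h, 4 of the 7 tested rose (CA12, ANKRD37, BNIP3 and NDRG1) and 2 fell (ANGPTL4 and BNIP3L). That is 57.1% and 28.6%, beside 33.5% and 37.5% of all genes. At 48 h CA12 rose (14.3%) while ANGPTL4, BNIP3 and BNIP3L fell (42.9%), beside 29.1% and 29.8% of all genes. CA12, a membrane carbonic anhydrase that handles acid outside the cell, had 7, 5.96 and 8.55 CPM with GSK-J4 at 72 h, against 2.04, 2.34 and 3.66 CPM with GSK-J5. All 3 GSK-J4 libraries were above all 3 GSK-J5 libraries, and the first-set log2 fold change was 1.63 at 72 h (SE 0.241, edgeR adjusted p = 9.11e-05) and 0.99 at 48 h (adjusted p = 0.00379). BNIP3L, a receptor that marks mitochondria for autophagy, had 63.8 and 67.2 CPM in first-set GSK-J4 libraries at 72 h and 145 CPM in replicate 3, against 133, 141 and 139 CPM with GSK-J5. Only replicate 3 of the GSK-J4 libraries reached the GSK-J5 range, and the first-set log2 fold change was -1 at 72 h (SE 0.0857, edgeR adjusted p = 1.04e-06). Its paralog BNIP3 had 130, 130 and 143 CPM with GSK-J4 at 72 h, against 108, 118 and 104 CPM with GSK-J5, and 65.3 and 60.3 CPM at 48 h, against 88.2 and 74.8 CPM. The groups were apart at both times in opposite directions, with log2 fold changes of 0.27 at 72 h (edgeR adjusted p = 0.0356) and -0.35 at 48 h (adjusted p = 0.0124). NDRG1, a stress-induced growth regulator, had 513, 537 and 661 CPM with GSK-J4 at 72 h, against 437, 447 and 540 CPM with GSK-J5, and the groups overlapped only through the second set. ANGPTL4, a secreted inhibitor of lipoprotein lipase, rested on few counts, 14 in first-set GSK-J4 libraries at 72 h against 119 with GSK-J5 (GSK-J5 over GSK-J4 5.57, 95% counting interval 3.19 to 10.5). ANKRD37, a small ankyrin repeat protein, had 5.67 and 4.67 CPM in the first-set GSK-J4 libraries at 72 h against 3.51 and 3.64 CPM with GSK-J5. ADM, the vasodilator adrenomedullin, did not pass at either time, with log2 fold changes of -0.33 at 72 h and -0.03 at 48 h. CA9, a carbonic anhydrase often used as a hypoxia marker, had at most 5 counts in any GSK-J4 library and 18 in any GSK-J5 library of OVCAR-3.

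Of the transporters, SLC2A1 rose, SLC16A3 fell, SLC16A1 did not pass and SLC2A3 was not tested. SLC2A1 (chromosome 1, 42925375 to 42959176, minus strand), the widely expressed glucose transporter GLUT1, had 654 and 758 CPM in first-set GSK-J4 72 h libraries and 325 CPM in replicate 3, against 235, 223 and 199 CPM with GSK-J5. At 48 h it had 406 and 422 CPM with GSK-J4, against 198 and 203 CPM with GSK-J5. Each GSK-J4 library was above each GSK-J5 library, with replicate 3 nearest to them, and the log2 fold change in the first set was 1.69 at 72 h (SE 0.0921, edgeR adjusted p = 3.59e-08) and 1.07 at 48 h (SE 0.0908, adjusted p = 2.25e-06). SLC16A3 (chromosome 17, 82228397 to 82261129, plus strand), the lactate exporter MCT4, had 13.6 and 10.9 CPM in first-set GSK-J4 libraries at 72 h and 145 CPM in replicate 3, against 124, 118 and 127 CPM with GSK-J5. At 48 h SLC16A3 had 17.4 and 15.5 CPM with GSK-J4, against 87.9 and 87.7 CPM with GSK-J5. The first-set groups were far apart, while replicate 3 with GSK-J4 was the highest of all OVCAR-3 libraries. In the first set its log2 fold change was -3.24 at 72 h (SE 0.121, edgeR adjusted p = 4.35e-09) and -2.39 at 48 h (SE 0.115, adjusted p = 5.07e-08). SLC16A1, the monocarboxylate transporter MCT1, had 177, 185 and 179 CPM with GSK-J4 at 72 h, against 204, 210 and 181 CPM with GSK-J5, and its log2 fold changes of -0.13 at 72 h and 0.16 at 48 h did not pass. SLC2A3, the glucose transporter GLUT3, had 8 counts over the 3 GSK-J4 72 h libraries and 0 over the GSK-J5 libraries, so no fold is given.

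In the first set, 7 of the 17 glycolytic enzymes rose and 5 fell at 72 h (41.2% and 29.4%, beside 33.5% and 37.5% of all genes). At 48 h 2 rose and 9 fell (11.8% and 52.9%, beside 29.1% and 29.8% of all genes). Their median log2 fold change was 0.12 at 72 h and -0.28 at 48 h. The entry enzyme hexokinase rose in both of its forms. HK2, the inducible hexokinase, had 158, 180 and 140 CPM with GSK-J4 at 72 h, against 90, 95 and 104 CPM with GSK-J5, and 170 and 187 CPM with GSK-J4 at 48 h, against 78.2 and 87.2 CPM with GSK-J5. HK1, the constitutive form, had 170, 188 and 142 CPM with GSK-J4 at 72 h, against 100, 96.5 and 120 CPM with GSK-J5. Both were higher in every GSK-J4 library than in any GSK-J5 library of the same time, with first-set log2 fold changes at 72 h of 0.93 for HK2 (SE 0.0963, edgeR adjusted p = 4.87e-06) and 0.93 for HK1 (SE 0.0861, adjusted p = 1.96e-06).

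ALDOC and PGK1 fell most among the enzymes of the middle of the pathway. ALDOC (chromosome 17, 28573115 to 28577264, minus strand), the aldolase isoform best known from brain, had 3.87 and 2.98 CPM in first-set GSK-J4 libraries at 72 h and 18.4 CPM in replicate 3, against 14.9, 18 and 18.9 CPM with GSK-J5. At 48 h it had 3.01 and 2.72 CPM with GSK-J4, against 14.6 and 13.2 CPM with GSK-J5. The first-set groups did not overlap and replicate 3 with GSK-J4 lay within the GSK-J5 range, and the first-set log2 fold change was -2.2 at 72 h (SE 0.179, edgeR adjusted p = 6.58e-07) and -2.25 at 48 h (SE 0.175, adjusted p = 1.2e-06). PGK1 (chromosome X, 77910739 to 78129296, plus strand), the phosphoglycerate kinase that makes the first ATP of the pathway, had 439, 437 and 1010 CPM with GSK-J4 at 72 h, against 859, 906 and 890 CPM with GSK-J5. At 48 h it had 439 and 413 CPM with GSK-J4, against 840 and 844 CPM with GSK-J5. Again the third GSK-J4 library alone was in or above the GSK-J5 range, and the first-set log2 fold change was -0.95 at 72 h (SE 0.0816, edgeR adjusted p = 1.1e-06) and -0.96 at 48 h (SE 0.0815, adjusted p = 2.37e-06).

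Of the other enzymes, PFKL (the liver form of phosphofructokinase), PGAM1 (phosphoglycerate mutase) and PKM (pyruvate kinase) fell at both times, by 0.6, 0.53 and 0.28 on the log2 scale at 72 h and by 0.54, 0.9 and 0.62 at 48 h. A second set of enzymes passed as higher at 72 h and did not pass at 48 h. GPI, the isomerase that follows hexokinase, averaged 701 ± 158 CPM with GSK-J4 at 72 h and 480 ± 78.5 CPM with GSK-J5 (SD, n = 3 each), and its first-set log2 fold change was 0.65 at 72 h (edgeR adjusted p = 0.000122) and -0.14 at 48 h (adjusted p = 0.231). GAPDH had 3600, 3320 and 3020 CPM with GSK-J4 at 72 h, against 2190, 2210 and 2650 CPM with GSK-J5, and passed at 72 h with a log2 fold change of 0.72 (edgeR adjusted p = 0.000178). Both enolases rose at 72 h, with log2 fold changes of 0.46 for ENO1 and 0.61 for ENO2, the neuronal form, against -0.18 and -0.012 at 48 h, which did not pass. PFKM, PFKP, TPI1 and LDHA, the lactate dehydrogenase subunit that favours lactate, fell at 48 h, with log2 fold changes of -0.35, -0.28, -0.48 and -0.8, and did not pass at 72 h. GAPDH, ENO1 and PGAM1 belong to families with near-identical copies in the genome, so reads may be shared between copies. ALDOA and LDHB were listed at 1.13 to 5.81 and 0.457 to 16.8 CPM over the 22 libraries, far below other enzymes of the pathway. In the GENCODE annotation 42.3% of the ALDOA exon length lies in an overlapping gene on the same strand and 33.4% of that of LDHB in another, so their counts, and the ALDOA log2 fold change of 1.24 at 72 h (SE 0.406, edgeR adjusted p = 0.0187), are uncertain. Exons of CA9 and ANKRD37 overlap genes on the other strand over 38.5% and 35.2% of their length, and the strand setting of the counting is not given in the sources used here.

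**Figure D2:**
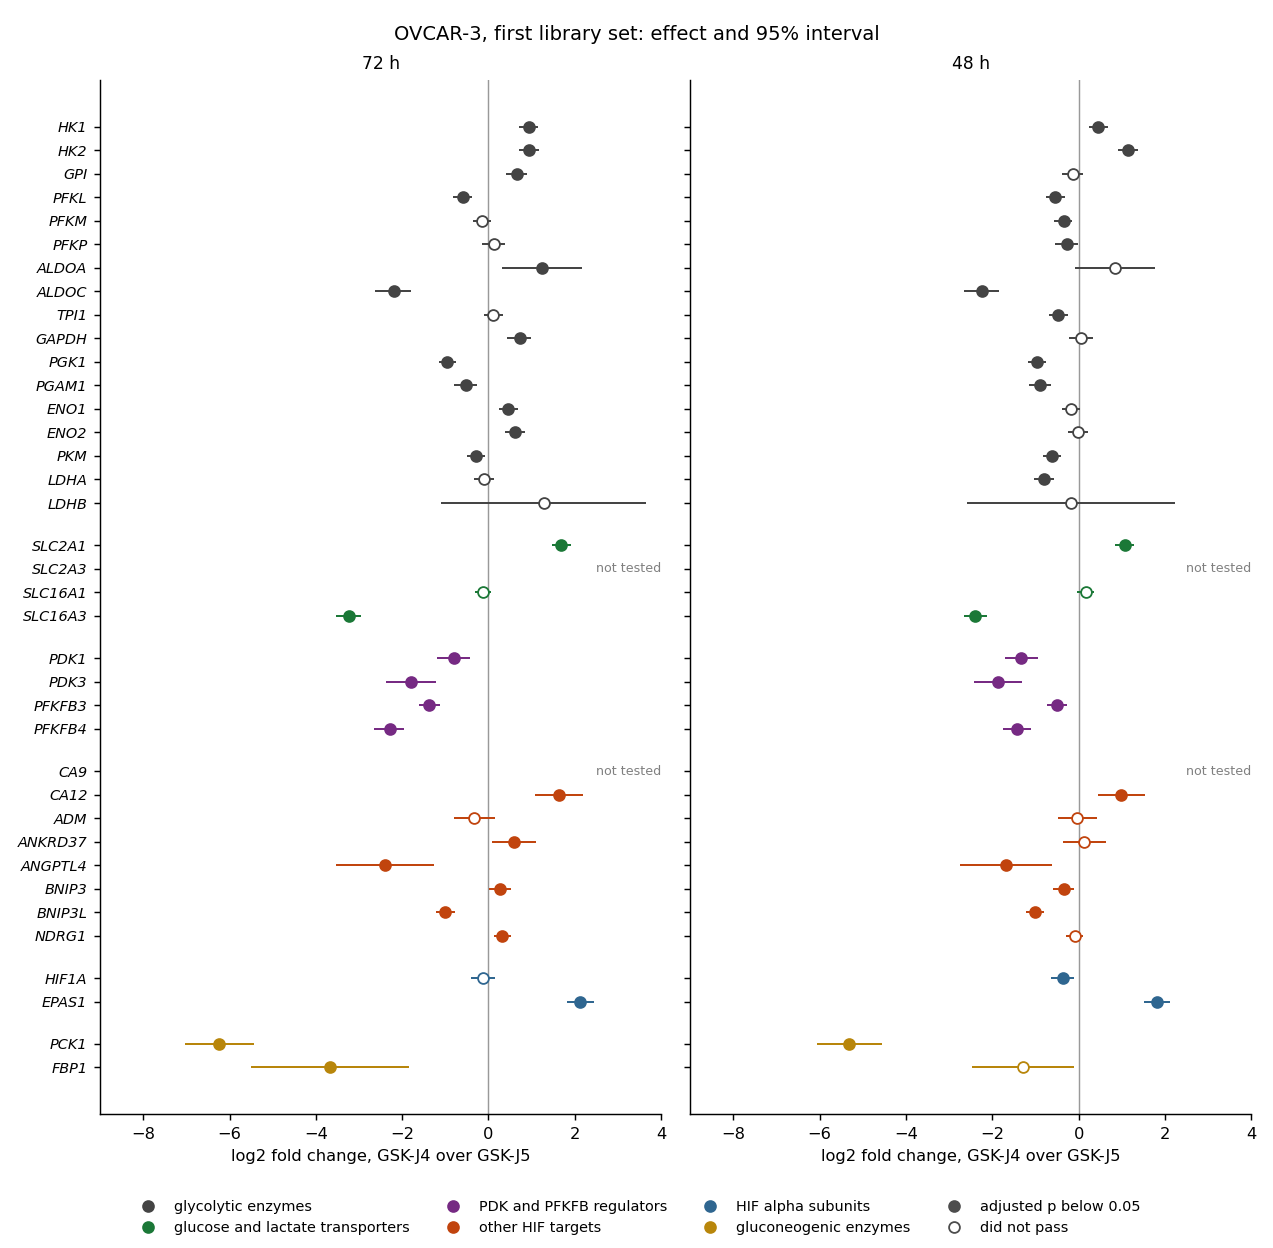
Log2 fold change of GSK-J4 over GSK-J5 with its 95% interval for each gene in first-set OVCAR-3 libraries, at 72 h on the left and 48 h on the right, coloured by gene group, with filled points for adjusted p below 0.05. All 4 PDK and PFKFB genes lie left of 0 at both times, SLC2A1 and EPAS1 lie right of it, and the glycolytic enzymes lie on both sides.

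The 4 regulators moved one way in the first set. PDK1 and PDK3 encode kinases that switch off pyruvate dehydrogenase, and PFKFB3 and PFKFB4 encode enzymes that set the level of fructose 2,6-bisphosphate, the main activator of phosphofructokinase. All 4 fell at both times in the first set, beside 37.5% of all genes at 72 h and 29.8% at 48 h. Their median log2 fold change was -1.58 at 72 h and -1.38 at 48 h. PFKFB4 had 6.25 and 4.98 CPM in first-set GSK-J4 libraries at 72 h and 48.4 CPM in replicate 3, against 27.5, 30.1 and 38.8 CPM with GSK-J5. PFKFB3 had 21.7, 23.6 and 51.4 CPM with GSK-J4 at 72 h, against 59.3, 62.8 and 44.9 CPM with GSK-J5. PDK1 had 9.54, 11.8 and 35.3 CPM with GSK-J4 at 72 h, against 17.4, 21.7 and 29.2 CPM with GSK-J5. In each of the 3 genes replicates 1 and 2 with GSK-J4 were the lowest libraries of 72 h, while replicate 3 with GSK-J4 was above replicate 3 with GSK-J5. PDK3 showed the same order but rested on lower levels, 1.7, 2.67 and 6.44 CPM with GSK-J4 at 72 h and 7.45, 8.49 and 4.63 CPM with GSK-J5. The first-set log2 fold changes at 72 h were -2.29 for PFKFB4 (SE 0.147), -1.37 for PFKFB3 (SE 0.0968), -0.81 for PDK1 (SE 0.161) and -1.8 for PDK3 (SE 0.25), with edgeR adjusted p from 1.04e-07 to 0.000839.

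PCK1 (ENSG00000124253.11, chromosome 20, 57561080 to 57568112, plus strand) had the most negative log2 fold change of all members. It had 0.159 and 0.308 CPM in first-set GSK-J4 libraries at 72 h and 11.5 CPM in replicate 3, against 17.6, 20.1 and 20.2 CPM with GSK-J5. At 48 h it had 0.455 and 0.11 CPM with GSK-J4, against 11.4 and 12.2 CPM with GSK-J5. The highest GSK-J4 library at 48 h and the highest first-set GSK-J4 library at 72 h were far below the lowest GSK-J5 library, and replicate 3 with GSK-J4 was below all GSK-J5 72 h libraries but near the 48 h ones. In counts, first-set GSK-J4 libraries held 9 at 72 h against 1102 with GSK-J5, a GSK-J5 over GSK-J4 ratio of 80.3 (95% counting interval 42.1 to 176), and 16 at 48 h against 725, a ratio of 41 (25.1 to 72.1). With replicate 3 the 72 h counts were 376 against 1686 and the ratio was 3.6 (3.22 to 4.04), so the value rests on which libraries are taken. The first-set log2 fold change was -6.24 at 72 h (SE 0.356, edgeR adjusted p = 5.03e-08) and -5.31 at 48 h (SE 0.326, adjusted p = 2.42e-07). FBP1 was near the floor of detection, with 2 counts in first-set GSK-J4 libraries at 72 h against 44 with GSK-J5 (ratio 14.4, 3.76 to 123) and 33 counts in replicate 3 with GSK-J4 against 14 with GSK-J5. Intervals of count ratios cover counting error only.

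The effect of GSK-J4 differed between 72 h and 48 h for 13 of 35 members in the first set, in a test of the difference itself. The effect at 72 h was the higher for 10 members (28.6%, beside 11.9% of all genes) and the lower for 3 (8.57%, beside 15.2%). The 10 were the glycolytic enzymes HK1, GPI, TPI1, GAPDH, ENO1, ENO2 and LDHA, with SLC2A1, BNIP3 and NDRG1. Their differences in log2 fold change ran from 0.4 for NDRG1 to 0.79 for GPI. SLC16A3, PFKFB3 and PFKFB4 had differences of -0.85, -0.87 and -0.87. No glycolytic enzyme had a lower effect at 72 h that passed, and the median difference of the 17 was 0.41, against -0.033 over all genes. For PCK1 the difference of -0.93 (SE 0.665) did not pass (edgeR adjusted p = 0.349). With all 10 OVCAR-3 libraries 0 of 35 members passed this test (0.00575% of all genes did), the unadjusted p was below 0.05 for 5, and the calls were 3 with DESeq2 (1.4% of all genes) and 0 with limma voom.

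With all 3 libraries per compound, edgeR called 0 of 35 members at 72 h in OVCAR-3 in either direction, against 0.0298% of 16802 genes that rose and 0% that fell. The unadjusted p was below 0.05 for 14, and the calls were 7 higher and 7 lower with DESeq2 (20% each, beside 19.9% and 17.8% of all genes) and 0 with limma voom. Without replicate 3 the same test called 13 higher and 14 lower, beside 34.6% and 37.1% of all genes. Without only the GSK-J4 replicate 3 library it also called 13 and 14. The fit allows for the library set, so the remaining replicate 3 library then adds nothing to the comparison. That setting therefore cannot tell which replicate 3 library mattered. The log2 fold changes over all libraries kept their direction but had wide errors for the genes that led the first set, with 1.65 for EPAS1 (SE 0.327, edgeR adjusted p = 0.07), 1.31 for SLC2A1 (SE 0.267, adjusted p = 0.07), -2.23 for SLC16A3 (SE 0.76, adjusted p = 0.0848), -1.53 for ALDOC (SE 0.483, adjusted p = 0.0756) and -4.14 for PCK1 (SE 1.25, adjusted p = 0.0737). Within pairs of the same number, the log2 ratio of GSK-J4 over GSK-J5 was above 0 for 15 of 34 members with at least 1 CPM in replicate 1, for 16 of 34 in replicate 2 and for 27 of 35 in replicate 3. The median size of that ratio, without its sign, was 0.8, 0.69 and 0.31.

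**Figure D3:**
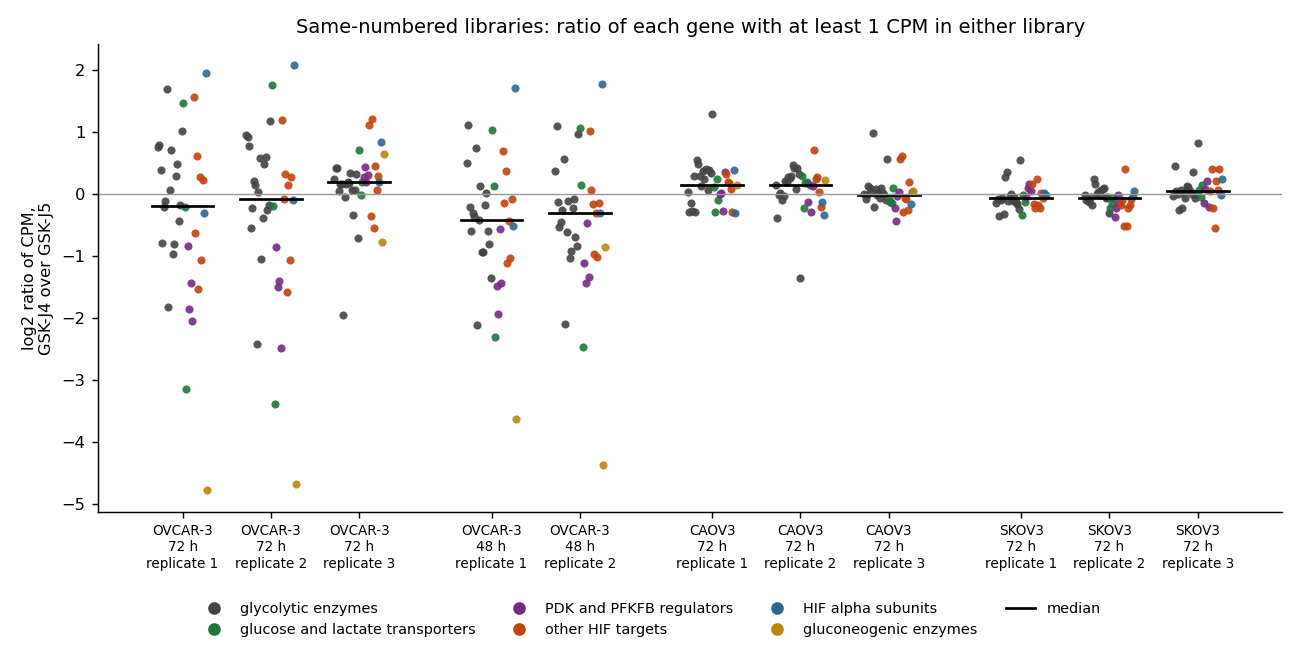
Log2 ratio of CPM, GSK-J4 over GSK-J5, of same-numbered libraries for each gene with at least 1 CPM in either, by line, time and replicate, coloured by gene group, with a black line for the median. The OVCAR-3 pairs of replicates 1 and 2 spread most widely. The median is 0.19 in the OVCAR-3 pair of replicate 3 and 0.14, 0.15 and -0.011 in the CAOV3 pairs. In the SKOV3 pairs it is -0.064, -0.07 and 0.045.

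At 48 h the spread was shared with the 72 h libraries in a fit of all 10 OVCAR-3 libraries, which called 4 members higher and 10 lower of 35, or 11.4% and 28.6%, beside 11.3% and 7.63% of all genes. HK2, SLC2A1, CA12 and EPAS1 rose. ALDOC, PGK1, PGAM1, PKM, LDHA, SLC16A3, PDK1, PDK3, BNIP3L and PCK1 fell. The log2 fold changes stayed near the first-set values, since replicate 3 had no 48 h library, and the SE was larger, as for SLC16A3 (log2 fold change -2.39, SE 0.706, edgeR adjusted p = 0.0499). The call depended on few libraries, since leaving out any one 48 h library left 0 members called and leaving out replicate 3 left 5 higher and 19 lower. The replicate block left 0 called.

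In CAOV3 at 72 h edgeR called 0 of 35 members, beside 0.0642% of 17137 genes that rose and 0.251% that fell, while 7 members had an unadjusted p below 0.05. DESeq2 called TPI1, PGK1, ENO1 and PKM higher (11.4% of members, beside 1.7% of all genes), and limma voom called TPI1, ENO1 and PKM (8.57%, beside 1.36%). ENO1 had 1230, 1200 and 1060 CPM with GSK-J4, against 922, 890 and 992 CPM with GSK-J5, and PKM had 5160, 4810 and 4220 CPM with GSK-J4, against 3930, 3580 and 4250 CPM. ENO1 was higher in all 3 GSK-J4 libraries, and for PKM the replicate 3 libraries were level. Their log2 fold changes were 0.32 (SE 0.076, edgeR adjusted p = 0.0634) and 0.27 (SE 0.0774, adjusted p = 0.0892). PGK1, which had fallen in first-set OVCAR-3, averaged 972 ± 78.2 CPM with GSK-J4 in CAOV3 and 831 ± 161 CPM with GSK-J5 (SD, n = 3 each). Without replicate 3, edgeR called 7 glycolytic enzymes higher (TPI1, GAPDH, PGK1, PGAM1, ENO1, PKM and LDHA) and SLC2A3 and EPAS1 lower, which is 20% and 5.71% of the members tested, beside 6.7% and 7.38% of 16554 genes. The counts of members were the same when either replicate 3 library was left out. This adds no further check, since the fit allows for the library set and the comparison again rests on replicates 1 and 2. SLC2A3, which only CAOV3 expressed at a high level, had 406, 375 and 613 CPM with GSK-J4, against 491, 440 and 672 CPM with GSK-J5, lower in each same-numbered pair. EPAS1 had 302, 332 and 427 CPM with GSK-J4, against 374, 419 and 417 CPM, and its log2 fold change of -0.2 (SE 0.0959) did not pass. SLC16A3 had 705, 796 and 978 CPM with GSK-J4, against 750, 696 and 916 CPM with GSK-J5, and the groups overlapped.

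In SKOV3 at 72 h edgeR also called 0 of 35 members, beside 0.0236% of 16981 genes that rose and 0.0177% that fell. There, 2 members had an unadjusted p below 0.05, SLC2A1 and ANGPTL4, and DESeq2 and limma voom called 0. SLC2A1 averaged 452 ± 68.3 CPM with GSK-J4 and 516 ± 138 CPM with GSK-J5 (SD, n = 3 each), and was lower in replicates 1 and 2 and not in replicate 3, with a log2 fold change of -0.16 (SE 0.0688). ANGPTL4 had 27.3, 25.4 and 11.8 CPM with GSK-J4, against 30.9, 36.6 and 17.4 CPM with GSK-J5, lower in each pair, with a log2 fold change of -0.42 (SE 0.116, edgeR adjusted p = 0.756). EPAS1 had 206, 179 and 828 CPM with GSK-J4, against 208, 173 and 695 CPM with GSK-J5, higher in replicate 3 with both compounds, and the compounds overlapped. PCK1 had 0 counts in all 6 libraries of SKOV3 and in all 6 of CAOV3, which allows up to 3 counts in each. FBP1 was expressed in CAOV3, with 64.8, 64.3 and 62.4 CPM with GSK-J4 against 58.7, 54.9 and 60.3 CPM with GSK-J5.

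**Figure D4:**
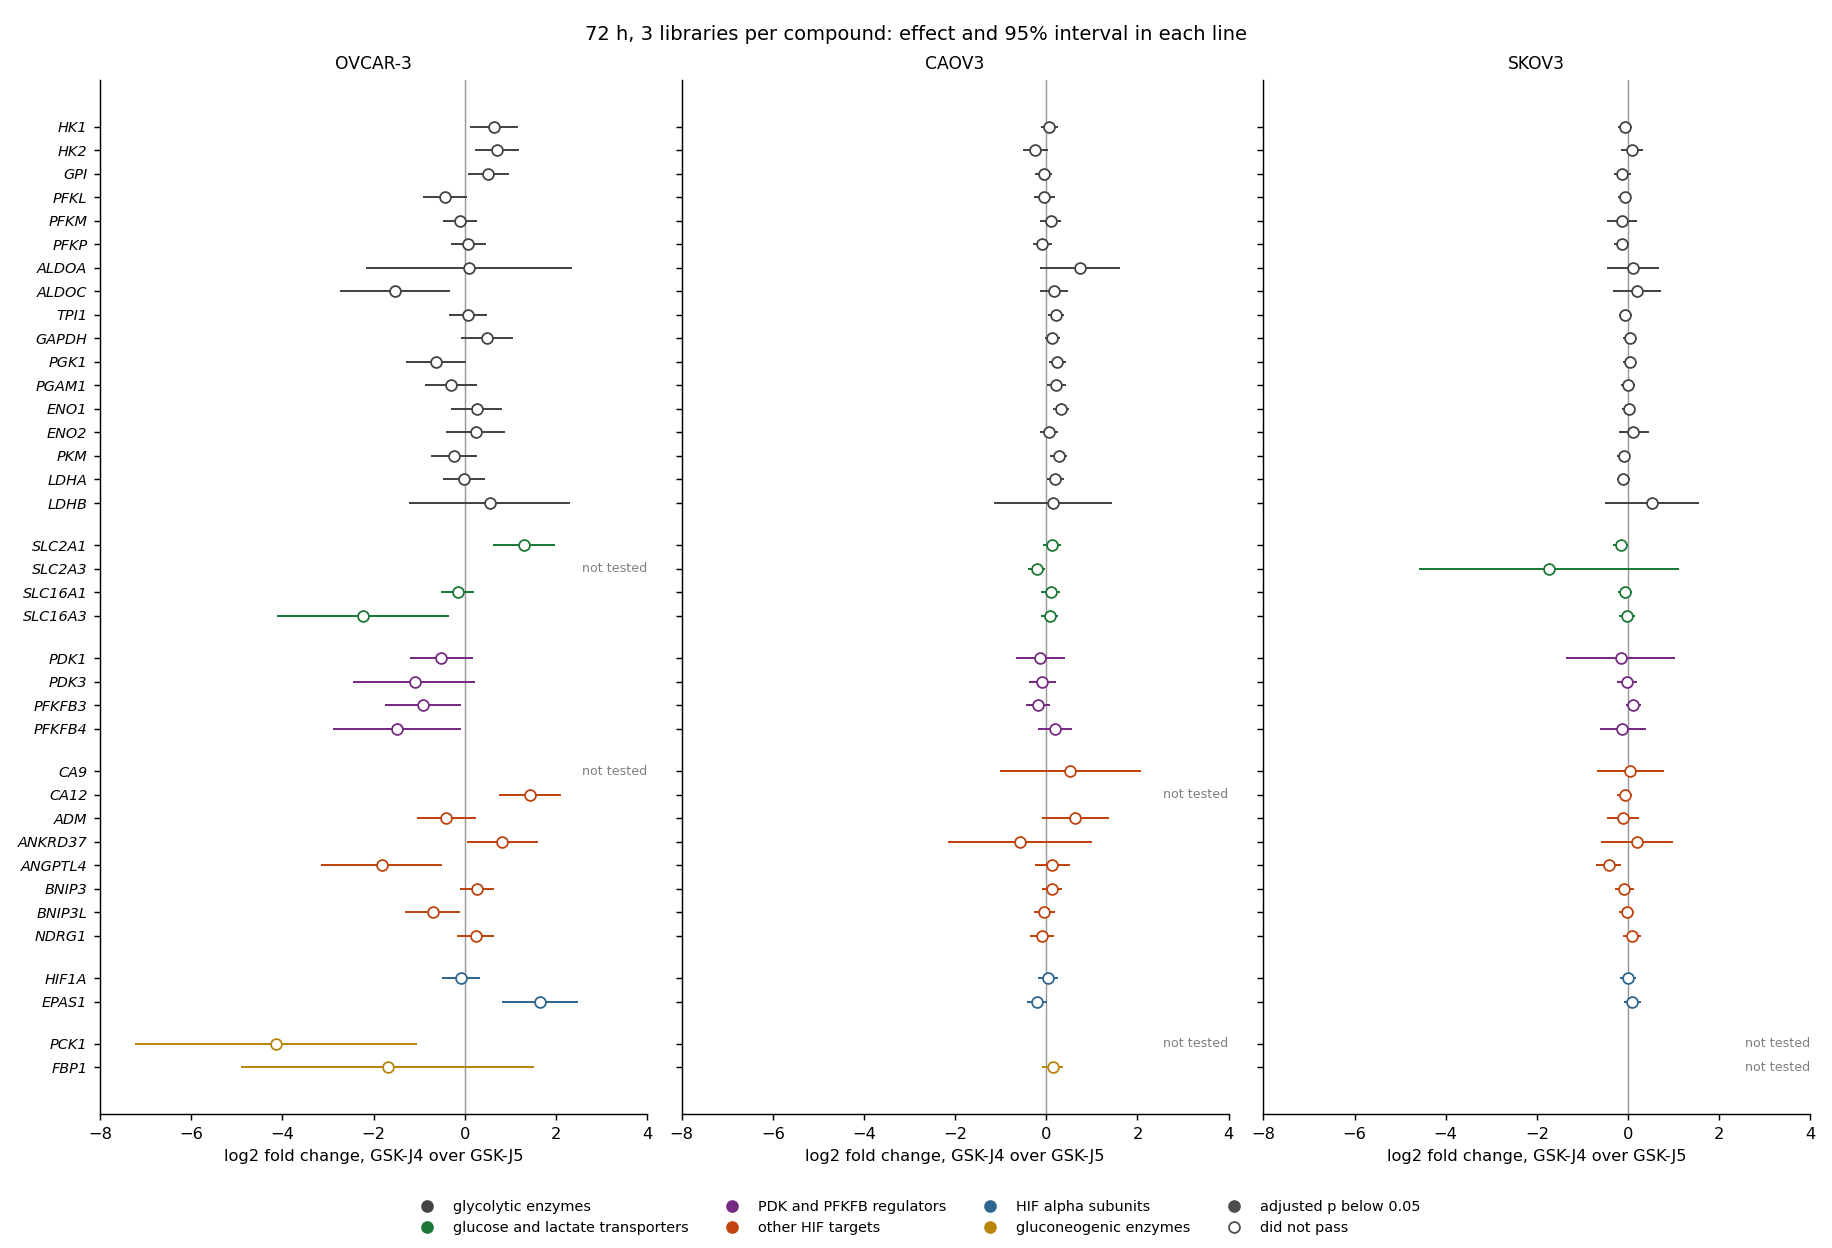
Log2 fold change of GSK-J4 over GSK-J5 at 72 h with its 95% interval in OVCAR-3, CAOV3 and SKOV3, from 3 libraries per compound, coloured by gene group, with open points because 0 genes of the set passed in any line. The OVCAR-3 intervals are wide, and the CAOV3 and SKOV3 points lie close to 0 apart from genes with low counts.

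The effect at 72 h differed between OVCAR-3 and CAOV3 for 9 of 37 members (24.3%, beside 19.3% of all 20252 genes) and between OVCAR-3 and SKOV3 for 10 (27%, beside 20.8%), in tests of the difference that share the OVCAR-3 libraries. Against CAOV3, HK1, HK2, GPI, SLC2A1 and EPAS1 had the higher effect in OVCAR-3, and ALDOC, PGK1, SLC16A3 and ANGPTL4 the lower. Against SKOV3, HK1, HK2, GPI, SLC2A1, CA12 and EPAS1 had the higher effect in OVCAR-3, and ALDOC, SLC16A3, PFKFB3 and ANGPTL4 the lower. For EPAS1 the difference in log2 fold change was 1.87 against CAOV3 (SE 0.282, edgeR adjusted p = 0.002) and 1.57 against SKOV3 (SE 0.282, adjusted p = 0.00392). For SLC16A3 it was -2.26 against CAOV3 (SE 0.668, adjusted p = 0.0314) and -2.18 against SKOV3 (SE 0.668, adjusted p = 0.0343). With DESeq2 size factors 2203 genes were higher and 1770 lower in OVCAR-3 against CAOV3, in place of 2565 and 1342, and the members called were 5 higher and 8 lower, in place of 5 and 4. Leaving out replicate 1, or replicate 2, left 0 members called against either line, and leaving out replicate 3 gave 22 against CAOV3 (59.5%, beside 41.5% of all genes) and 23 against SKOV3 (62.2%, beside 42%). Between CAOV3 and SKOV3 edgeR called 0 of 37 members (0% of all genes), 1 had an unadjusted p below 0.05, and DESeq2 and limma voom called 0. PCK1 was among the 37 tested and did not pass between OVCAR-3 and either other line. It had no count in CAOV3 or SKOV3, so the size of its difference could not be estimated. Nor could that of CA12 against CAOV3, where CA12 had no count.

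The lines also differed in how they express these genes with GSK-J5 alone, which is given as a description. Between OVCAR-3 and CAOV3 the 3 libraries of a gene did not overlap for 29 of 37 members, between OVCAR-3 and SKOV3 for 29, and between CAOV3 and SKOV3 for 30. Those are 78.4%, 78.4% and 81.1% of the members, beside 62.2%, 59.5% and 63.1% of the 20252 genes tested between the lines. Levels per kb of exon put ENO1 first in OVCAR-3 (804 ± 65.8 CPM per kb, SD, n = 3), followed by GAPDH (788 ± 87.8) and PKM (525 ± 26.1), and ENO1 and GAPDH lay within each other's spread. The length was that of all annotated exon bases of a gene, so the order of genes depends on the annotation. In mean CPM, without length, PKM (4500) was above ENO1 (4240) and GAPDH (2350) in OVCAR-3. CAOV3 was led by GAPDH (2290 ± 79.3 CPM per kb), then TPI1 (519 ± 15.9) and PKM (458 ± 39.1). In SKOV3 ENO1 (882 ± 30.7 CPM per kb), PKM (795 ± 139) and GAPDH (732 ± 148) came first, each within the spread of the next, with LDHA at 613 ± 196. Isoform use differed as well. ENO2 stood at 6.81 ± 0.221 CPM per kb in OVCAR-3, 46.7 ± 5.43 in CAOV3 and 4.06 ± 0.653 in SKOV3, and PFKM at 15.5 ± 1.49 in OVCAR-3 and 13.5 ± 1.6 in CAOV3, which overlapped, and 1.62 ± 0.0193 in SKOV3. SLC16A3 was lowest in OVCAR-3, at 13.6 ± 0.501 CPM per kb against 87.6 ± 12.7 in CAOV3 and 45.3 ± 14.6 in SKOV3, and EPAS1 was at 2.03 ± 0.535 in OVCAR-3 against 55.3 ± 3.48 and 49.1 ± 40. PCK1 was at 2.83 ± 0.22 CPM per kb in OVCAR-3 and at 0 counts in the others, while FBP1 was at 0.381 ± 0.108 in OVCAR-3, 33.3 ± 1.61 in CAOV3 and 0.0239 ± 0.0414 in SKOV3. The line that expressed SLC2A3, at 86.8 ± 19.8 CPM per kb, was CAOV3.

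**Figure D5:**
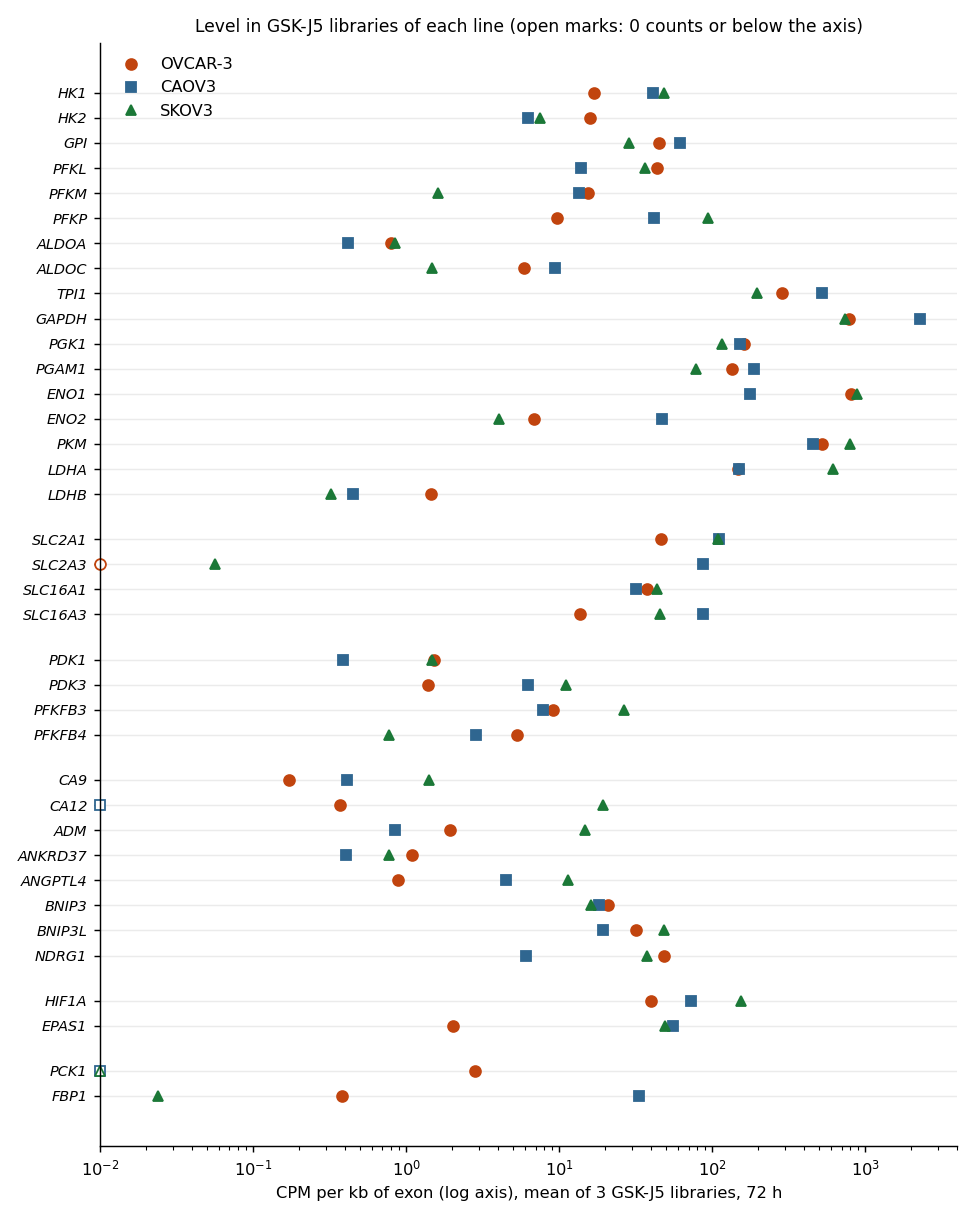
Mean level of each gene in the 3 GSK-J5 libraries of 72 h, as CPM per kb of exon on a log axis, with circles for OVCAR-3, squares for CAOV3 and triangles for SKOV3 and open marks for 0 counts or values below the axis. GAPDH, ENO1 and PKM are among the highest in the lines, and SLC2A3, CA12, PCK1 and FBP1 differ most between them.

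Of 111 further genes of these pathways, 96 were tested in first-set OVCAR-3. At 72 h 40 rose and 37 fell (41.7% and 38.5%), beside 33.5% and 37.5% of all genes. At 48 h 40 rose and 26 fell (41.7% and 27.1%), beside 29.1% and 29.8%. With all OVCAR-3 libraries 0% of the 97 tested passed in edgeR at 72 h, beside 0.0298% of all genes that rose and 0% that fell. At 48 h 23.7% of them rose and 8.25% fell, beside 11.3% and 7.63% of all genes. The OVCAR-3 calls that follow are of the first set. The pentose phosphate pathway, which branches off after hexokinase to make NADPH and ribose, had 6 of 8 tested genes higher at 72 h (75%) and 1 lower (12.5%), with a median log2 fold change of 1.32, against -0.12 over all genes. Its transketolase TKT had 947, 1080 and 522 CPM with GSK-J4 at 72 h, against 297, 277 and 276 CPM with GSK-J5, higher in every GSK-J4 library, and a first-set log2 fold change of 1.88 (SE 0.0916, edgeR adjusted p = 1.69e-08). PGLS, the lactonase of the same branch, had 78.6, 103 and 35.9 CPM with GSK-J4, against 30.9, 28.1 and 28.4 CPM with GSK-J5. Of 11 HIF regulators and partners 9 fell and 2 rose at 72 h, with a median log2 fold change of -1.37. VHL, which marks the alpha subunits for degradation, had 31.2, 24.1 and 69.4 CPM with GSK-J4 at 72 h in OVCAR-3, against 92.1, 85.3 and 73.3 CPM with GSK-J5. In CAOV3 VHL was the one of the 111 that passed, with 46.2, 47.3 and 84.5 CPM with GSK-J4 against 94.3, 94.9 and 98.7 CPM with GSK-J5 (log2 fold change -0.75, SE 0.14, edgeR adjusted p = 0.0403). Of 26 further HIF targets 13 rose and 11 fell at 72 h. Among those that fell was PLOD2, a collagen lysyl hydroxylase, with 10.1, 11.5 and 78.9 CPM with GSK-J4 against 79.2, 88.5 and 74.2 CPM with GSK-J5. None of the 6 further glucose transporters tested rose, and 5 fell, with SLC2A10 at 4.77, 2.98 and 25.6 CPM with GSK-J4 against 23.2, 25.4 and 30.4 CPM with GSK-J5.

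Around PCK1, its mitochondrial counterpart PCK2 rose in the first set while PCK1 fell. PCK2 had 83.1 and 76.2 CPM in first-set GSK-J4 libraries at 72 h and 73.6 CPM in replicate 3, against 42.4, 36.2 and 178 CPM with GSK-J5, so the groups overlapped through the GSK-J5 replicate 3 library. The first-set log2 fold change was 1.08 at 72 h (SE 0.1, edgeR adjusted p = 1.96e-06) and 1.73 at 48 h (SE 0.101, adjusted p = 1.65e-07). With all libraries PCK2 passed at neither time. In the first set, of 14 transcription factors and coactivators known to act on PCK1, 5 rose and 5 fell at 72 h. That is 35.7% each, near the 33.5% and 37.5% of all genes. At 48 h 9 rose and 1 fell (64.3% and 7.14%, beside 29.1% and 29.8%). With all libraries 0% of the 14 passed at 72 h. In that fit 42.9% rose and 0% fell at 48 h, beside 11.3% and 7.63% of all genes. PPARG, which drives PCK1 in fat, had 13.5, 14.6 and 5.34 CPM with GSK-J4 at 72 h, against 0.613, 0.55 and 1.24 CPM with GSK-J5, higher in every GSK-J4 library, with a first-set log2 fold change of 4.65 (SE 0.267, edgeR adjusted p = 4.83e-08). HNF4A, a liver factor, had 8, 11 and 14 counts with GSK-J4 at 72 h and 0 counts in each GSK-J5 library. TXNIP and ARRDC4, arrestin-family brakes on glucose uptake that respond to MondoA, rose at both times in the first set. TXNIP had 151 and 114 CPM in first-set GSK-J4 libraries at 72 h and 29.1 CPM in replicate 3. With GSK-J5 it had 48.1, 42.2 and 48.5 CPM. Of the targets of the compound, KDM6B and KDM6A rose at 48 h in the first set, with log2 fold changes of 0.89 (SE 0.116, edgeR adjusted p = 5.68e-05) and 0.32 (SE 0.114, adjusted p = 0.0308). Neither passed at 72 h (0.15 and -0.082, adjusted p = 0.275 and 0.541). The compound acts on the proteins, so their mRNA does not check the labels.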

How the data were processed

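RNA-seq of 3 cell lines was deposited as raw counts per gene, whole numbers without normalization, in 3 tables of 58825 Ensembl identifiers, per the file headers. STAR, DESeq2 and GRCh38 (hg38) are named in the submitters' processing notes without version or role. The sources used here name no counting tool, strandedness or annotation release. The labels' 14 samples cover 22 libraries, since samples of the first set hold replicates 1 and 2. A shortened OVCAR-3 column header was read as GSK-J4 72 h replicate 3, the sample left for it. Symbols were looked up in a name table (58472 identifiers) or in GENCODE (345).

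Counts were tested with edgeR 4.0.16 in R 4.3.3. Genes were kept by filterByExpr (minimum count 10), libraries were scaled by TMM, and models were fitted by glmQLFit (robust) and tested by glmQLFTest, with Benjamini-Hochberg adjustment across every gene of a fit and a threshold of 0.05. The 72 h comparison of a line used its 6 libraries, with the library set as covariate. OVCAR-3 at 48 h and its difference from 72 h used all 10 OVCAR-3 libraries, first-set values used the 8 libraries of replicates 1 and 2 without covariate, and differences between lines used 18 libraries, the set being nested in line. Fold changes have a prior count of 0.125, and the SE, |log2 fold change| divided by the root of F, is approximate. Pair ratios added 0.5 CPM. Alternatives were scaling by DESeq2 1.42.0, the DESeq2 Wald test, voom in limma 3.58.1, no low-count filter, no set term, a replicate block, fits of more libraries, and leaving out replicates and libraries. The edgeR step was tested on simulated counts.

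Same-numbered libraries deviated together from their group means in SKOV3 (correlations 0.293, 0.292 and 0.66), where the block changed no call, and not throughout in OVCAR-3 (-0.074 to 0.0642) or CAOV3 (0.01 to 0.163). The genes, lists and tests, including the first-set fits, were chosen with earlier results of these data known. All 37 genes were named, and of each further list at most the 2 called genes with the largest change per comparison, except VHL in OVCAR-3, COL1A1, COL1A2, EPCAM, KRT8, CDH1 and CD14, which were named after their values were seen.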

Additional observations from a re-analysis of the deposited data

Results flagged for a closer look

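In first-set OVCAR-3 libraries the GSK-J4 effect differed between 72 h and 48 h in a test of the difference. The log2 fold change at 72 h exceeded that at 48 h by 0.47 for HK1, 0.79 for GPI, 0.59 for TPI1, 0.67 for GAPDH, 0.64 for ENO1, 0.62 for ENO2 and 0.69 for LDHA. It exceeded it by 0.62 for SLC2A1, 0.62 for BNIP3 and 0.4 for NDRG1, and the difference was -0.85 for SLC16A3, -0.87 for PFKFB3 and -0.87 for PFKFB4. With replicate 3 included, 0 of these 13 passed.

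At 72 h the effect in OVCAR-3 minus that in CAOV3 was 0.6 for HK1, 0.97 for HK2, 0.6 for GPI, 1.21 for SLC2A1 and 1.87 for EPAS1. It was -1.65 for ALDOC, -0.86 for PGK1, -2.26 for SLC16A3 and -1.77 for ANGPTL4. The effect in OVCAR-3 minus that in SKOV3 was 0.72 for HK1, 0.63 for HK2, 0.66 for GPI, 1.48 for SLC2A1, 1.51 for CA12 and 1.57 for EPAS1. It was -1.68 for ALDOC, -2.18 for SLC16A3, -1.02 for PFKFB3 and -1.21 for ANGPTL4. The OVCAR-3 libraries are shared by both sets of differences. Without replicate 1, or without replicate 2, 0 members passed in either.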

How the results depend on the processing

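The OVCAR-3 results depended most on replicate 3. Where a fit had a set term, leaving out either replicate 3 library of a line left its comparison to replicates 1 and 2. The counts in this section are of members alone. Shares of all genes are given above for only some of these settings, so the counts do not set the members apart from other genes. For OVCAR-3 at 72 h, where 0 members passed in edgeR, 7 higher and 7 lower passed in DESeq2, 3 higher without the low-count filter, 8 and 8 in the fit of all 10 OVCAR-3 libraries, and 7 and 10 in the fit of 18 libraries. Leaving out 1 replicate or library gave 0 to 13 higher and 0 to 14 lower. In CAOV3 the higher calls were 4 in DESeq2, 3 in limma voom and 2 without the filter, and leaving out 1 replicate or library gave 0 to 7 higher and 0 to 2 lower. In SKOV3 it gave 0 or 1 lower, ANGPTL4 without replicate 1. For OVCAR-3 at 48 h, with 4 higher and 10 lower, no set term gave 2 and 0, the replicate block 0 and 0, and leaving out 1 replicate or library 0 to 5 higher and 0 to 19 lower. Members whose effect differed between 72 h and 48 h, 0 with all libraries, were 3 in DESeq2 and 0 to 13 with a replicate or library left out, and the SLC16A3 difference ran from -0.85 (without replicate 3 or either of its OVCAR-3 72 h libraries) to 0.83 (without replicate 2), against 0.2 with all libraries. Members that differed between OVCAR-3 and CAOV3, 9 in edgeR, were 14 in DESeq2, 16 without the filter, 0 without the set term, 4 with the replicate block, and 0 to 22 with a replicate or library left out. Against SKOV3, 10 became 17 in DESeq2, 2 without the set term, 3 with the replicate block, and 0 to 23. Between CAOV3 and SKOV3, 0 became 2 without replicate 3. The cause was not tested. The replicate block changed no other member count. First-set counts stayed within 1.5 times under each alternative run, single libraries left out included, and leaving out a whole replicate there was not run because no residual degree of freedom remained. FBP1, ANGPTL4, CA9, ANKRD37 and EGLN2 rest on few counts.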
